A study of Mus musculus with 12 samples.

Results

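The precursors of miR-150, miR-342 and miR-223, miRNAs enriched in lymphoid or myeloid blood cells, were followed in small RNA libraries of the mouse cerebral cortex. They were chosen by name, and all 3 were among the 589 precursors of the deposited table. The study compared 4 groups of female C57BL/6J mice with 3 libraries per group. The WT group and the TLR4-KO group, which has the TLR4-/- genotype, drank water, while the WT + EtOH and TLR4-KO + EtOH groups drank water with 10% (v/v) alcohol for 5 months from an age of 7 weeks. Each of the 12 libraries held the pooled small RNA of 3 mice (36 mice in all), so that an SD over a group describes the spread between pools and not between mice. The WT mice came from a commercial breeder and the TLR4-KO mice from another laboratory, and the effects of the genotype and of the colony cannot be told apart. Small RNA libraries contain no mRNA of Tlr4, so the deletion itself could not be seen in these data.

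A miRNA is cut from a hairpin precursor as a short strand from one arm, and its bases 2 to 8, the seed, pair with the mRNAs it represses. miR-150 is abundant in mature lymphocytes and is known for repressing the transcription factor Myb during B cell development. miR-342 is produced from an intron of Evl, a gene of an actin regulator that is active in blood cells, and miR-223 is a marker of granulocytes and monocytes, where it restrains their production and activation. TLR4, the receptor for bacterial lipopolysaccharide, activates NF-κB in microglia and blood-derived myeloid cells. In tissue RNA, fewer cells of a type and less of the miRNA per cell cannot be told apart. The mice were killed by cervical dislocation and the dissected tissue was snap-frozen, with no perfusion step described.

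The mature strands below, from RefSeq on GRCm38.p6, are shown because they are what a read of each precursor contains. The seed is in capitals.
mmu-miR-150-3p: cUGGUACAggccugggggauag
mmu-miR-342-5p: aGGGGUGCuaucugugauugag
mmu-miR-342-3p: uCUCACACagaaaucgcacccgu
mmu-miR-223-5p: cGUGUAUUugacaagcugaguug
mmu-miR-223-3p: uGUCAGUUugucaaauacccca
For mmu-miR-150-5p only the name is given, and its seed was not compared with other precursors. The 5 seeds shown differ from each other, and none of them was found in a mature strand of another of the 490 precursors with a sequence in that table, so that the members had no listed seed relative by these strands. The hairpins of miR-342 and miR-223 follow with both mature arms in capitals, since the deposited table gives 1 value per precursor and does not separate the arms.
mmu-mir-342: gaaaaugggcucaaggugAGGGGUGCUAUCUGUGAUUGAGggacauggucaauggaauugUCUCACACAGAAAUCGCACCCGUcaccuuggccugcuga
mmu-mir-223: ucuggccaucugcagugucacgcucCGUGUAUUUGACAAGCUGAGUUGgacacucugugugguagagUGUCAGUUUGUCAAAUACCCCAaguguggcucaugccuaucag

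The 3 precursors lie on different chromosomes, each on the plus strand of GRCm38 (GENCODE M21). mmu-mir-150 is on chromosome 7 from 45121757 to 45121821, between genes, and its nearest neighbour, Gm45552, lies 96 bases away on the same strand. mmu-mir-342 is on chromosome 12 from 108658620 to 108658718, in an intron of Evl on the same strand. mmu-mir-223 is on chromosome X from 96242817 to 96242926, within an exon of the non-coding gene F630028O10Rik on the same strand.

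The deposited values are a scaled logarithm of the reads that had been brought to the same distribution in all libraries, so that a value mostly states the rank of a precursor in its library. They have no unit, differences between them are not folds, and no reads or depths stand beside them, which leaves their counting error unknown. The highest value was 135 in every library, between 216 and 270 of the 589 precursors were above 0 in a library, and 265 were at 0 in all of them. The number above 0 was largest in replicate 1 of every group (WT 270, WT + EtOH 270, TLR4-KO 262 and TLR4-KO + EtOH 262). It was 260 in WT replicates 2 and 3, and from 216 to 247 in replicates 2 and 3 of the other groups. The cause was not tested. All 10 precursors of the neuronal miRNAs miR-9, miR-124, miR-128 and miR-138 were above 0 in at least 1 library of each group, and their summed value was between 612 and 669 in every library.

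mmu-mir-150 was the member with the highest level, with a mean of 75.1 ± 3.95 (SD over the 12 libraries) at place 48 of the 324 precursors above 0 anywhere. The WT pools had values of 69.7, 68.7 and 69.7, the WT + EtOH pools 74.1, 76.8 and 79.4, the TLR4-KO pools 81.1, 78.0 and 76.8, and the TLR4-KO + EtOH pools 74.8, 76.0 and 76.0. The 3 WT libraries were the lowest of the 12 and did not overlap any other group. Taken 1 group at a time, WT was separated in this direction for 13.3% (WT + EtOH), 13.0% (TLR4-KO) and 14.2% (TLR4-KO + EtOH) of the 324. The share with WT below all other groups at once was not counted. In ranks, mmu-mir-150 stood at 51 or 52 in the WT libraries and between 35 and 46 in the other 9, and equal values in a pair of libraries mean that it had the same rank in both. By group mean the order was TLR4-KO (78.6 ± 2.25, SD, n = 3), WT + EtOH (76.8 ± 2.64), TLR4-KO + EtOH (75.6 ± 0.671) and WT (69.3 ± 0.566). The first 3 differed from their neighbours by less than the larger SD, whereas the step from TLR4-KO + EtOH down to WT was 6.27. Its pooled SD within groups, 1.79, was low, with 11 of the 190 precursors above 0 in all libraries below it and a median of 3.63 among them.

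**Figure D1:**
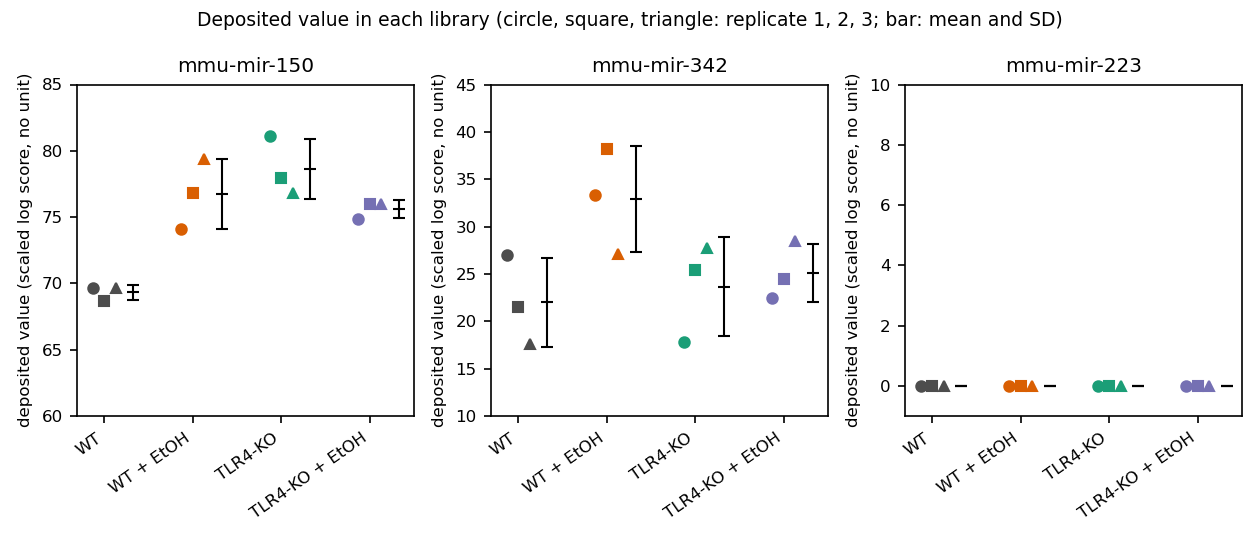
Deposited value (scaled log score without a unit, axes not starting at 0 for the first pair of panels) of mmu-mir-150, mmu-mir-342 and mmu-mir-223 in each library of the 4 groups, with circles, squares and triangles for replicates 1, 2 and 3 and a bar for the group mean and SD (n = 3). The WT libraries of mmu-mir-150 sit between 68.7 and 69.7, below the other 9, those of mmu-mir-342 spread from 17.6 to 27.0, and mmu-mir-223 is at 0 throughout.

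Whether chronic alcohol changes these miRNAs in the presence of TLR4 is addressed by WT + EtOH against WT. mmu-mir-150 rose by 7.41 (standard error 1.43, 95% confidence interval 4.13 to 10.7, limma adjusted p = 0.0444), above every WT library in 3 of 3 libraries. It was the only member called, where 6 of 589 precursors (1.02%) were called higher, and the libraries were separated in this direction for 13.3% of the 324 precursors above 0 anywhere. A two-sided exact permutation test of 3 against 3 libraries gave p = 0.1, the smallest it can give, here and in the other comparisons without overlap. The call was close to the threshold and ended when the fit held only these groups (adjusted p = 0.143), used ranks (0.253) or used robust variances (0.0504). It was also lost without WT replicate 1, 2 or 3 (adjusted p = 0.125, 0.165 and 0.144 from limma), WT + EtOH replicate 2 or 3 (0.141 and 0.116), TLR4-KO replicate 2 (0.0738) or TLR4-KO + EtOH replicate 1, 2 or 3 (0.0624, 0.0858 and 0.0929), with a difference between 6.10 and 7.58 in these.

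The loss of TLR4 without alcohol went with a rise of mmu-mir-150 of a similar size. Between TLR4-KO and WT it rose by 9.28 (standard error 1.43, 95% confidence interval 6.00 to 12.6, limma adjusted p = 0.00958), with 3 of 3 TLR4-KO libraries above all WT libraries, where 9 of 589 precursors (1.53%) were called higher and 13.0% of the 324 were separated in this direction. The call was kept whichever library was left out (adjusted p from 0.00746 to 0.0475 from limma), and it ended in ranks (0.110) and with these groups alone (0.0664). Between TLR4-KO + EtOH and WT the difference was 6.27 (95% confidence interval 2.99 to 9.55, limma adjusted p = 0.0813), again without overlap of the libraries but not called, where 6 of 589 (1.02%) were called higher and 14.2% of the 324 were separated in this direction. All 3 comparisons rest on the same 3 WT libraries.

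In mice without TLR4, the values of mmu-mir-150 with alcohol were not above those without it. The 3 TLR4-KO + EtOH libraries were below all TLR4-KO libraries, with a difference of −3.01 (standard error 1.43, 95% confidence interval −6.30 to 0.270, limma adjusted p = 0.810). This was not called, whereas 2 of 589 precursors (0.340%) were called in either direction, and the libraries of 4.01% of the 324 precursors above 0 anywhere were separated in this direction. The difference between the alcohol effects in TLR4-KO and in WT was −10.4 (standard error 2.03, 95% confidence interval −15.1 to −5.78, limma adjusted p = 0.0511), just short of the threshold that 7 of 589 precursors (1.19%) passed. Over the alternatives its adjusted p was between 0.0270 and 0.232. With alcohol in both genotypes, TLR4-KO + EtOH and WT + EtOH overlapped and differed by −1.14 (95% confidence interval −4.42 to 2.14, limma adjusted p = 1), where 3 of 589 (0.509%) were called in either direction.

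**Figure D2:**
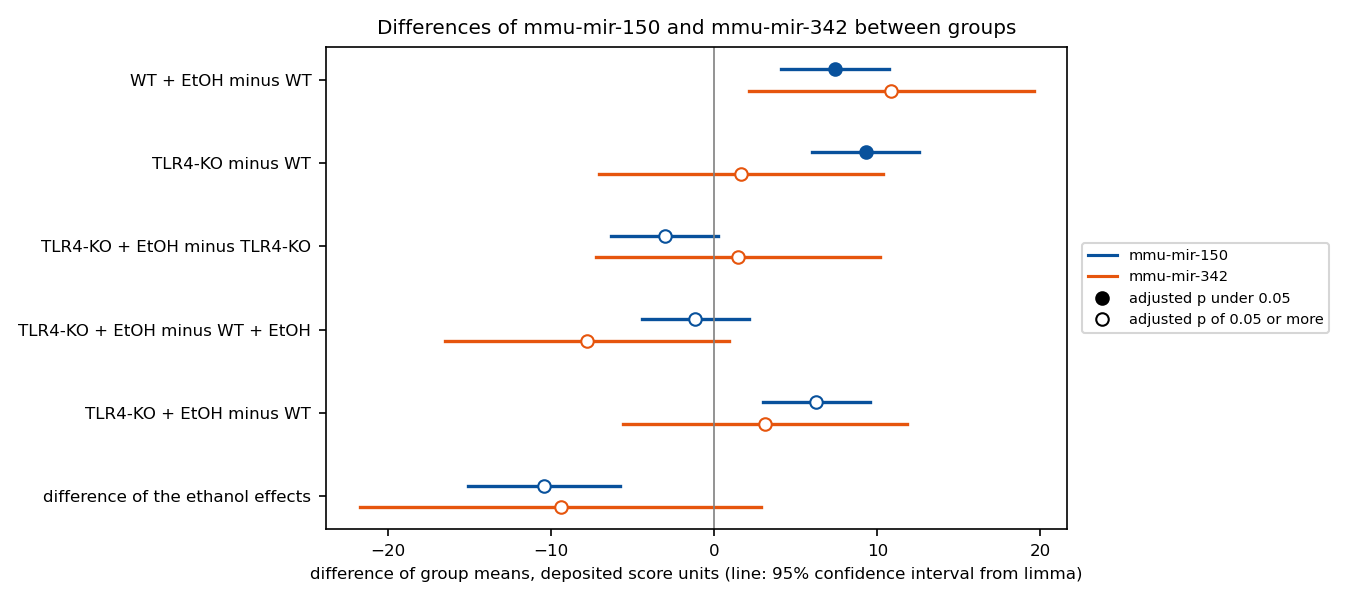
Differences of group means of mmu-mir-150 (blue) and mmu-mir-342 (orange) in deposited score units for 5 comparisons and for the difference of the alcohol effects, with 95% confidence intervals from limma and filled points where the adjusted p was under 0.05. The filled points are mmu-mir-150 in WT + EtOH minus WT (7.41) and TLR4-KO minus WT (9.28), and the intervals of mmu-mir-342 are wider throughout.

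mmu-mir-342 was detected in every library at a lower level, with a mean of 25.9 ± 5.94 (SD over the 12 libraries) at place 167 of 324. The WT pools had values of 27.0, 21.5 and 17.6, the WT + EtOH pools 33.4, 38.2 and 27.1, the TLR4-KO pools 17.8, 25.4 and 27.8, and the TLR4-KO + EtOH pools 22.4, 24.5 and 28.5. WT + EtOH was the only group apart from WT, and only by a narrow margin, since its lowest library (27.09) was just above the highest of WT (26.95). The order by group mean was WT + EtOH (32.9 ± 5.57, SD, n = 3), TLR4-KO + EtOH (25.1 ± 3.07), TLR4-KO (23.7 ± 5.24) and WT (22.0 ± 4.69). The steps between the last 3 were smaller than the larger SD, and the step below WT + EtOH was 7.76 with overlapping libraries. Its pooled SD within groups was 4.74, larger than that of 67.9% of the 190 precursors above 0 in all libraries.

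No comparison of mmu-mir-342 passed the test. With alcohol in WT its difference was 10.9 (standard error 3.80, 95% confidence interval 2.17 to 19.6, limma adjusted p = 0.244), larger than that of mmu-mir-150 on this scale but with a standard error above it as well. The libraries were separated in the same direction for 43 of the 324 precursors above 0 anywhere (13.3%). In TLR4-KO mice the difference with alcohol was 1.47 (95% confidence interval −7.24 to 10.2, limma adjusted p = 1), and the difference of the alcohol effects was −9.40 (95% confidence interval −21.7 to 2.91, limma adjusted p = 0.659). TLR4-KO + EtOH against WT + EtOH gave −7.76 (95% confidence interval −16.5 to 0.946, limma adjusted p = 1). TLR4-KO against WT gave 1.64 (95% confidence interval −7.06 to 10.4) and TLR4-KO + EtOH against WT 3.11 (−5.59 to 11.8), each with a limma adjusted p of 1. The intervals allow differences as large as those of mmu-mir-150 in either genotype, so that the spread between pools limits what can be said of mmu-mir-342.

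mmu-mir-223 was listed at 0 in all 12 libraries, together with 264 other precursors, and was not tested. With no reads given, the value does not show that the miRNA is absent from the cortex, and no upper limit can be set. The lowest value above 0 in the table was 1.25.

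Of 9 other precursors of leukocyte or immune-responsive miRNAs listed, 7 were in the deposited table (mmu-mir-147 and mmu-mir-511 were not found in it under these names). For these 7, limma called 0 in each of the 6 comparisons. Over all 589 precursors the share called was 1.70% between WT + EtOH and WT, 2.55% between TLR4-KO and WT, 1.87% between TLR4-KO + EtOH and WT and 1.19% or less in the others, so that 0 of 7 is near the background. At an unadjusted p under 0.05 there were 0 between WT + EtOH and WT, 3 between TLR4-KO and WT (mmu-mir-146a, mmu-mir-21a and mmu-mir-22, all lower), 1 between TLR4-KO + EtOH and TLR4-KO (mmu-mir-146a, higher), 0 in the other comparisons of TLR4-KO + EtOH and 2 for the difference of the alcohol effects (mmu-mir-146a and mmu-mir-22). Of the 589, 74, 72, 41, 27 and 63 passed in the 5 comparisons of groups, in the order plotted, and 74 for the difference of the alcohol effects. The 265 precursors at 0 in every library could not pass, so all that passed were among the 324 above 0 anywhere, as all 7 of the list were. Their differences were mostly negative where that of mmu-mir-150 was positive, with a median of −6.21 between WT + EtOH and WT (0 higher, 5 lower) and −9.35 between TLR4-KO and WT (1 higher, 5 lower), against a median of 0 over the 324 precursors in both comparisons.

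Within that list, mmu-mir-142a, the precursor of a miRNA found throughout blood cells, had 44.2, 45.9 and 42.7 in WT pools and 28.2, 30.7 and 38.5 in TLR4-KO pools, without overlap, as for 15.4% of the 324 (difference −11.8, 95% confidence interval −26.0 to 2.49, limma adjusted p = 0.532). In WT + EtOH it spread from 28.3 to 55.5 and overlapped WT. mmu-mir-146a, an NF-κB target that restrains TLR signalling, had 46.4, 46.4 and 48.6 in WT pools, 37.8, 42.5 and 42.5 in WT + EtOH pools, 29.6, 36.8 and 39.1 in TLR4-KO pools, and 58.3, 46.4 and 42.1 in TLR4-KO + EtOH pools. Its values with alcohol were below all WT values in the WT + EtOH pools, as for 17.3% of the 324 precursors, and above all TLR4-KO values in the TLR4-KO + EtOH pools, as for 7.10%. mmu-mir-155, which TLR signalling induces in macrophages, was above 0 in 2 TLR4-KO libraries (4.20 and 17.8) and listed at 0 in the other 10, so that it differed from its list in direction without a call. mmu-mir-142b was above 0 in 1 library (4.08 in TLR4-KO + EtOH).

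Among 5 red blood cell precursors, the precursors of miR-451 were lower where mmu-mir-150 was higher. The values of mmu-mir-451a, whose miRNA is made in maturing red cells, are the same as those of mmu-mir-451b, so that both count as 1 measurement, at 50.2, 50.2 and 46.3 in the WT pools and between 24.5 and 36.0 in the other 9 libraries. The limma differences from WT were −14.6 with alcohol (adjusted p = 0.0346, where 0.679% of the 589 were called lower), −17.6 in TLR4-KO (adjusted p = 0.00948, 1.02% called lower) and −20.9 in TLR4-KO + EtOH (adjusted p = 0.00364, 0.849% called lower). The first call ended without WT replicate 1, 2 or 3, WT + EtOH replicate 1, 2 or 3, TLR4-KO replicate 2 or TLR4-KO + EtOH replicate 2, and the first and second ended when only the groups compared were fitted. mmu-mir-144, from the same primary transcript, was at 4.20, 8.17 and 0 in the WT pools, at 16.0, 0 and 0 in WT + EtOH and listed at 0 in the other 6. mmu-mir-486b was higher than WT instead, by 8.19 in WT + EtOH (limma adjusted p = 0.196) and 8.76 in TLR4-KO (0.139), without a call. mmu-mir-486a hardly differed from WT, by −0.383 in WT + EtOH and 0.486 in TLR4-KO, also without a call.

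The summed value of the 5 red blood cell precursors ranged over the WT pools from 287 to 306, over the WT + EtOH pools from 278 to 281, over the TLR4-KO pools from 258 to 278, and over the TLR4-KO + EtOH pools from 244 to 273. That of the 7 leukocyte or immune-responsive precursors was 208 to 231, 175 to 195, 149 to 195 and 186 to 207 in the same order. The WT libraries, which were below all others in mmu-mir-150, were above all others in this second sum, but only narrowly. The lowest WT library had 207.97 and the highest TLR4-KO + EtOH library 207.44. The WT libraries were also highest in the red blood cell sum when miR-451 entered it as both mmu-mir-451a and mmu-mir-451b. With miR-451 counted once, and mmu-mir-486a and mmu-mir-486b both kept, the groups overlapped. This sum ranged over the WT pools from 241 to 256 and over the WT + EtOH pools from 243 to 247. It ranged over the TLR4-KO pools from 231 to 244, and over the TLR4-KO + EtOH pools from 219 to 241. Of 5 vascular precursors, 4 were above 0. Of these, 3 were lower and 1 higher between WT + EtOH and WT, and likewise between TLR4-KO and WT. With 0 called, the list was near the background of 1.70% and 2.55% of the 589 by adjusted p. At an unadjusted limma p under 0.05 there were 3 between WT + EtOH and WT (mmu-mir-126a and mmu-mir-143 lower, mmu-mir-145a higher). Between TLR4-KO and WT there were 2 (mmu-mir-143 lower, mmu-mir-145a higher). Of all 589, 74 and 72 passed in these comparisons. Between WT + EtOH and WT, mmu-mir-143, of smooth muscle cells, was at −6.45 (limma adjusted p = 0.0649) and mmu-mir-145a, from the same cluster, at 8.09 (0.151). The part of blood or vessel content in the values of mmu-mir-150 was not tested.

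**Figure D3:**
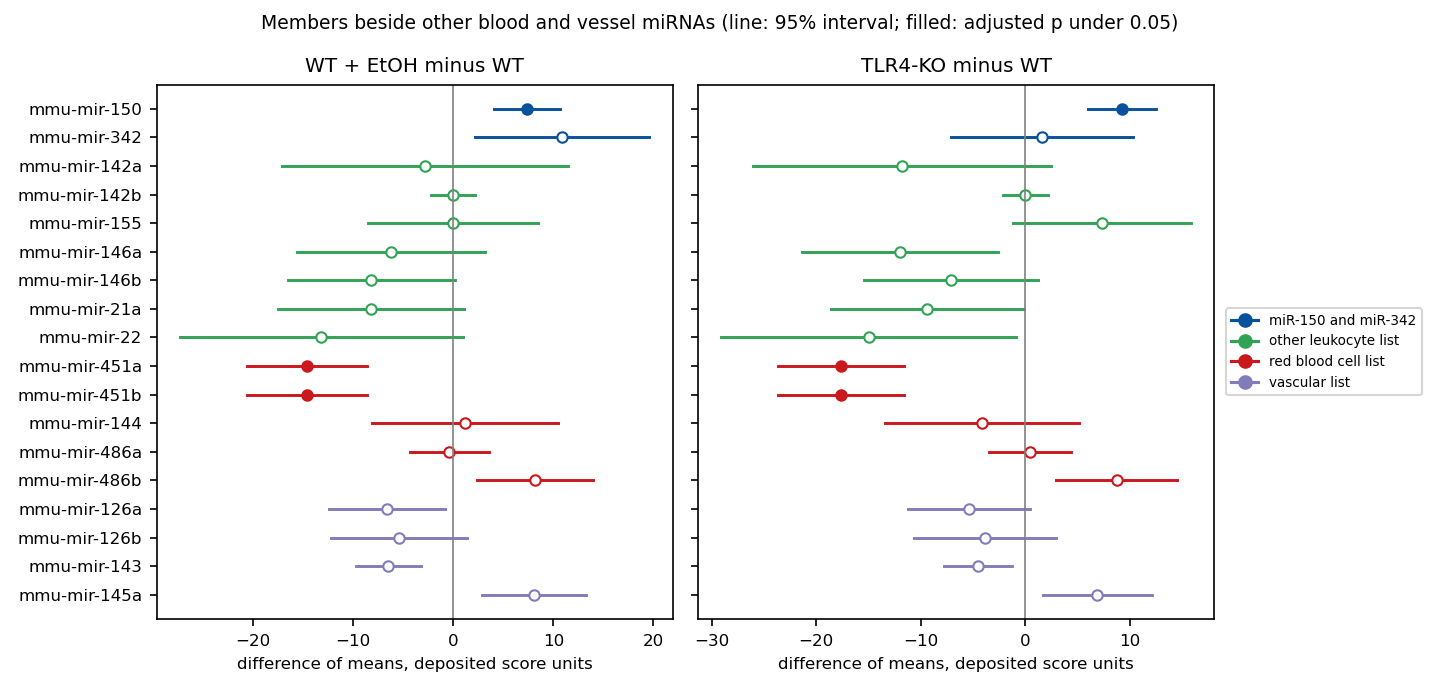
Differences in deposited score units, with 95% confidence intervals from limma, of mmu-mir-150 and mmu-mir-342 beside other leukocyte, red blood cell and vascular precursors, for WT + EtOH minus WT and TLR4-KO minus WT; filled points have an adjusted p under 0.05. mmu-mir-150 is to the right of 0 in both panels (7.41 and 9.28), whereas mmu-mir-451a and mmu-mir-451b are to the left (−14.6 and −17.6).

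The profiles over the 12 libraries, each taken relative to its own mean, placed mmu-mir-744 closest to mmu-mir-150 among the 190 precursors above 0 in all libraries, with a mean absolute gap of 0.832. mmu-mir-485 (1.67) and mmu-mir-351 (1.67) followed, and all 3 had their lowest group mean in WT. The group means of mmu-mir-744 were highest for TLR4-KO (85.6), followed by WT + EtOH (82.5), TLR4-KO + EtOH (80.4) and WT (75.7), the same order of groups as mmu-mir-150. For mmu-mir-342 the closest were mmu-mir-674 (2.17), mmu-mir-100 (2.82) and mmu-mir-378c (2.89), with gaps larger than those around mmu-mir-150. The group means of mmu-mir-674 were 36.4 for WT and 45.5 for WT + EtOH, against 37.5 (TLR4-KO) and 38.6 in the group with both, so that its high group was the same as that of mmu-mir-342. Because these precursors were chosen for their closeness to a member, a shared order of groups follows largely from the choice and is not separate evidence.

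**Figure D4:**
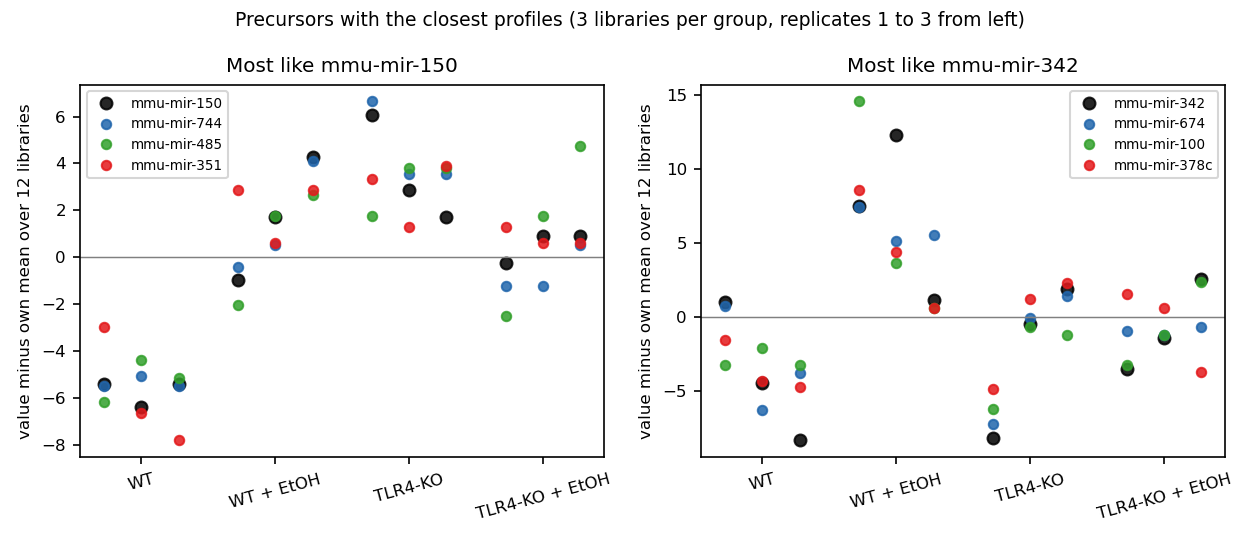
Deposited value minus the precursor's own mean over the 12 libraries for mmu-mir-150 (left, black) and mmu-mir-342 (right, black) with the 3 closest precursors in colour, libraries in 4 groups of 3. mmu-mir-150 and mmu-mir-744 follow each other with a mean absolute gap of 0.832, and mmu-mir-342 and mmu-mir-674 with one of 2.17.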

How the data were processed

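Small RNA libraries of 12 cortex pools (3 per group) were analysed. The authors trimmed the reads with Cutadapt, mapped them with Bowtie2 2.2.5 and TopHat (GRCm38 by the submitters' notes), counted them per miRNA precursor and deposited 1 normalized score per precursor and library. The methods name a normalization by the trimmed mean of M values. By the values, the 14 highest levels are equal in all libraries, as after quantile normalization. Because the scores are not counts, the stated negative binomial model was replaced by limma 3.58.1 in R 4.3.3 with the same single factor of 4 groups, fitted on all 589 precursors and 12 libraries, with a Benjamini-Hochberg adjustment per comparison and a call at an adjusted p under 0.05. Beside it, two-sided exact permutation tests were made in Python 3.11.15. No filter was applied, so the 265 precursors at 0 throughout entered the fit. With only the 285 precursors above 0 in at least 3 libraries, the standard error of mmu-mir-150 was 1.76 instead of 1.43. Its intervals would be wider with that filter. Its calls were kept (limma adjusted p = 0.0464 for WT + EtOH and 0.0146 for TLR4-KO, each against WT). The test was checked on simulated data. The paper gives miRNA read totals per group, but the depth of each library was not used here.

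The members are named in full. Other named precursors are the fixed leukocyte, red blood cell and vascular lists, of which those called or moving against their list are named, and the 3 profiles closest to each member. The members and lists were chosen with earlier results of these data known. Pairing by replicate number required a correlation of deviations above 0.1 in all 3 pairs of libraries. No pair of groups met this rule, so no pairing was used. The correlations ranged from −0.0776 to 0.240, and a weaker shared deviation by replicate number was not tested. Sequences are from RefSeq.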

Additional observations from a re-analysis of the deposited data

Results flagged for a closer look

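mmu-mir-150 stood out because alcohol went with higher values in all 3 WT libraries and lower values in all 3 TLR4-KO libraries (groups separated in these directions for 13.3% and 4.01% of the 324 precursors above 0 anywhere), with a difference of the alcohol effects of −10.4 (limma adjusted p = 0.0511, not past the threshold). mmu-mir-146a showed the opposite, lower in all 3 WT + EtOH libraries (as for 17.3% of the 324 precursors above 0 anywhere) and higher in all 3 TLR4-KO + EtOH libraries (7.10%), with a difference of the alcohol effects of 20.0 (standard error 5.80, 95% confidence interval 6.71 to 33.3, limma adjusted p = 0.194).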

How the results depend on the processing

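Of 238 recomputed values of mmu-mir-150 and mmu-mir-342, 211 kept direction and side of the threshold. For mmu-mir-150 between WT + EtOH and WT, the call was lost at 7.41 with only these groups, the replicate block (adjusted p = 0.0723) or robust variances, and at 9.33 ranks; without 1 library the difference was 6.10 to 8.74. Between TLR4-KO and WT it was lost at 9.28 with only these groups and at 12.3 ranks (8.03 to 10.2 without 1 library). TLR4-KO + EtOH minus WT was called with only these groups (6.27) and without WT + EtOH replicate 1 or 3 (5.95 to 6.66 without 1 library), and the difference of the alcohol effects with only precursors above 0 in at least 3 libraries or a variance trend (−10.4) and without WT + EtOH replicate 1 (−9.11 to −11.8 without 1 library). Uncalled differences changed sign for mmu-mir-150 between TLR4-KO + EtOH and WT + EtOH without WT + EtOH replicate 3 (0.170, from −2.47), and for mmu-mir-342 between TLR4-KO and WT without WT replicate 3 (−0.558) or TLR4-KO replicate 3 (−0.420, up to 4.59) and between TLR4-KO + EtOH and TLR4-KO without TLR4-KO replicate 1 (−1.48), TLR4-KO + EtOH replicate 3 (−0.205) or all replicates 1 (−0.132, up to 3.53). The causes were not tested.

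The calls over all precursors numbered 10, 15, 2, 3, 11 and 7 in the order of the comparisons plotted, and ranged over the alternatives that kept all libraries or dropped replicates 1 from 7 to 26, 13 to 31, 0 to 3, 0 to 4, 9 to 24 and 3 to 13. The replicate numbers did not meet the rule for pairing, although 7 of 12 libraries correlated best with their own number. The block gave 13, 24, 3, 2, 19 and 3 calls. Without 1 library they ranged from 4 to 18, 11 to 22, 0 to 4, 0 to 3, 7 to 17 and 2 to 15. The call of mmu-mir-451a (1 measurement with mmu-mir-451b) was lost against WT with only the groups compared (WT + EtOH and TLR4-KO) and without all replicates 1 (WT + EtOH). The lowest WT red blood cell sum minus the highest of the other groups was 6.45, and −5.65 with miR-451 counted once, an alternative chosen after seeing the data. The block called up to 2 vascular precursors, and 1 leukocyte precursor was called between TLR4-KO and WT without TLR4-KO replicate 3. With profiles divided by their SD, mmu-mir-744 stayed closest to mmu-mir-150, followed by mmu-mir-7224 and mmu-mir-1981, and the 3 closest to mmu-mir-342 were kept. A pool of 3 mice hides the spread between mice, and the depth of each library was not weighed.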
